A study of Homo sapiens with 6 samples.

Results

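The formins DIAPH2, DIAPH3 and FMNL2 were examined in Hs578T cells given a small interfering RNA (siRNA) against CSRP2. The 3 genes were chosen by name from among 14884 measured genes, because their values had differed between the groups in an earlier look at the same arrays. Each was represented by the probe set of that gene with the highest mean over the 6 arrays. Hs578T, a long-established line from a human breast carcinoma, has a mesenchymal character. CSRP2 encodes a LIM domain protein that bundles actin filaments. Total RNA was taken from cells transfected by lipid with a non-targeting siRNA (siControl, 3 arrays) or with the siRNA against CSRP2 (siCSRP2, 3 arrays), and it was hybridised to Affymetrix HuGene 2.0 arrays. All cells were grown in DMEM with 10% serum and added insulin, and RNA was taken 48 h after the cells had been moved to smaller wells, a day after transfection. The sources used here give neither the siRNA sequences nor whether they were pools. The labels do not tell whether each replicate was its own culture, and the p-values cover the spread among these 6 arrays alone, and that spread may be technical.

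Formins are large proteins that start and lengthen unbranched actin filaments. Their formin homology 2 domain forms a dimer that stays on the growing end of the filament, while the neighbouring formin homology 1 domain feeds it actin bound to profilin. Diaphanous-type formins (DIAPH1, DIAPH2 and DIAPH3) and the formin-like proteins (FMNL1, FMNL2 and FMNL3) are held closed by contacts between their ends and are opened by upstream signals. In migrating and invading cells formins build filopodia, the leading edge of lamellipodia and stress fibres, and DIAPH3 also serves the contractile ring that divides the cell.

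The probe set values are log2 signals deposited by the authors, and the differences given are siCSRP2 minus siControl on that log2 scale. Bulk arrays cannot tell fewer cells of a kind from less RNA per cell. CSRP2 itself measured 3.69, 4.01 and 4.35 on siControl 1, 2 and 3 and 3.25, 3.76 and 4.26 on siCSRP2 1, 2 and 3. The groups overlapped for CSRP2, and the test did not pass (limma, adjusted p = 0.583), so the target does not check the labels and siCSRP2 means the label. Of the mesenchymal markers, VIM (8.04 ± 0.11, SD, n = 3) and AXL (8.32 ± 0.37, SD, n = 3) were bright on siControl arrays and TWIST1 (3.53 ± 0.13, SD, n = 3) was not. Of the 13 epithelial markers, the keratin gene KRT18 was bright (8.11 ± 0.40, SD, n = 3), and the other 12 had siControl means from 2.40 (KRT19) to 3.82 (CLDN3). Of the 7 measured mesenchymal markers 5 fell, and of the 13 epithelial ones none passed (limma; 3 had an unadjusted p under 0.05, and KRT18, at -0.74, passed with the replicate block, adjusted p = 0.00746); their part in the formin values was not tested. siControl 3 stood apart: its mean correlation across genes was 0.967 with the other controls and 0.966 with the siCSRP2 arrays. Among all genes 974 fell (6.54%) and 119 rose (0.80%) at an adjusted p under 0.05 (limma with Benjamini-Hochberg adjustment). After quantile normalization 659 fell (4.43%) and 210 rose (1.41%), 5.84% in all, and after cyclic loess 687 fell and 197 rose.

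FMNL2, DIAPH2 and DIAPH3 were each lower on every siCSRP2 array than on every siControl array. The differences were modest, with mean signals on siCSRP2 arrays at 59.4%, 69.6% and 68.4% of the siControl mean in that order. FMNL2 drives filament growth at the leading edge downstream of the GTPase CDC42. Its probe set (16886564) measured 5.74, 5.89 and 6.19 on siControl 1, 2 and 3. On siCSRP2 1, 2 and 3 it measured 5.30, 5.12 and 5.13. The lowest control value lay 0.44 above the highest siCSRP2 value, and siControl 3, the array that stood apart, was the highest of all for this gene. The group means were 5.94 ± 0.23 and 5.18 ± 0.10 (SD, n = 3), a log2 difference of -0.75 (SE 0.14), which is a signal 1.68-fold lower.

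DIAPH2, the X-linked diaphanous formin, is known for roles in oogenesis and in endosome movement. Its probe set (17105284) measured 4.0, 4.30 and 4.04 on siControl 1, 2 and 3. The siCSRP2 arrays gave 3.68, 3.57 and 3.52 for DIAPH2. The groups were separated by 0.32, and siControl 2 was the highest array. Means were 4.11 ± 0.16 and 3.59 ± 0.08 (SD, n = 3), a log2 difference of -0.52 (SE 0.12), or 1.44-fold lower.

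DIAPH3, which assembles filopodial and contractile ring actin, was read by probe set 16779546. It measured 3.45, 3.56 and 3.36 on siControl 1, 2 and 3, and 2.79, 3.11 and 2.82 on siCSRP2 1, 2 and 3. siCSRP2 2 lay nearer to the controls than the other siCSRP2 arrays did, and the gap between the groups was 0.25. The means were 3.46 ± 0.10 and 2.91 ± 0.18 (SD, n = 3), a log2 difference of -0.55 (SE 0.13), or 1.46-fold lower. The siCSRP2 mean of DIAPH3 was below the median of all gene means, 2.99.

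**Figure D1:**
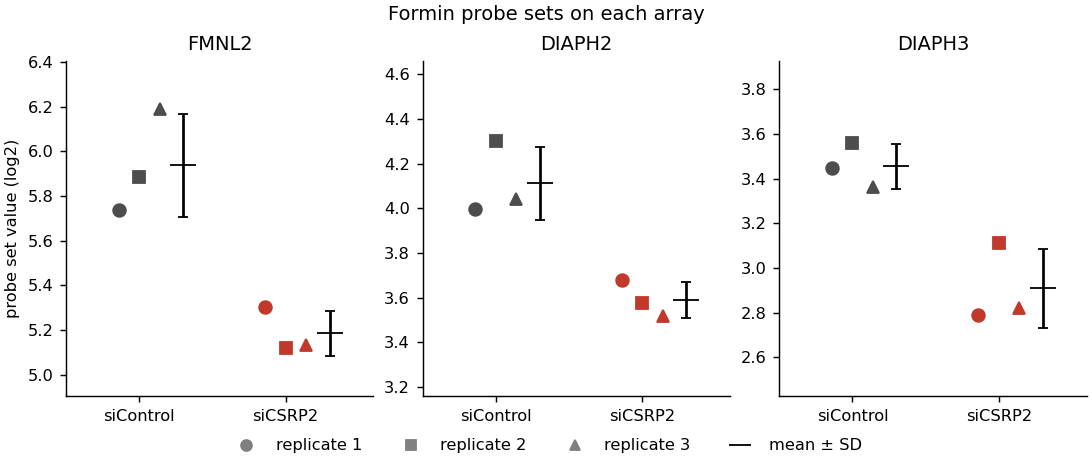
Probe set value (log2) of FMNL2, DIAPH2 and DIAPH3 on each array, with 1 point per array, shapes for replicate numbers and a bar for the group mean ± SD (n = 3). The axes differ in position and share a span; on each axis all siCSRP2 points lie below all siControl points, by 0.44, 0.32 and 0.25.

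These values chose the genes, so they are a description and carry no test. The values that had marked them were adjusted p of 0.0188 for FMNL2, 0.0373 for DIAPH3 and 0.0375 for DIAPH2, in a table where 7.34% of all genes passed and 6.54% passed as lower. Just outside the threshold of 0.05 lay the formin FHOD3, at 0.0597. By size of difference the 3 genes ranked 549, 865 and 899 among the 974 genes that fell (FMNL2, DIAPH3 and DIAPH2). Groups that do not overlap, with siCSRP2 lower, were seen for 16.2% of all genes, and with siCSRP2 higher for 11.5%.

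Passing the threshold depended on which arrays were kept, for these genes and over all genes. Over all genes 974 fell as reported, 86 without siControl 2, 2193 without siControl 3 and 455 with every probe set as a feature. The misses of the 3 genes are therefore not particular to them. FMNL2 passed in 14 of 18 fits (the reported fit and 17 alternatives), DIAPH3 in 12 and DIAPH2 in 8. Without siControl 2 the adjusted p was 0.0813 for FMNL2, 0.162 for DIAPH3 and 0.154 for DIAPH2. Without siCSRP2 2 it was 0.0780, 0.0574 and 0.121, and without siCSRP2 3 it was 0.0721, 0.122 and 0.121, in the same order. Without siControl 1, DIAPH3 gave 0.129 and DIAPH2 gave 0.0928, and without siCSRP2 1 they gave 0.0827 and 0.0551, while FMNL2 passed in both fits (0.0469 and 0.0330). Without siControl 3 all 3 genes passed (0.00942, 0.0181 and 0.0213). DIAPH2 also missed the threshold after quantile normalization (difference -0.40, adjusted p = 0.0681) and after cyclic loess (-0.40, adjusted p = 0.0719).

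Because the groups did not overlap, leaving out an array could not turn the sign, and several settings leave the estimate as it is, so the sign over the fits is no sign of stability. Over the 18 fits the difference ran from -0.85 to -0.59 for FMNL2, from -0.65 to -0.49 for DIAPH3 and from -0.61 to -0.40 for DIAPH2. The smallest FMNL2 value, -0.59, was the one after quantile normalization, and the largest came without siControl 1.

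**Figure D2:**
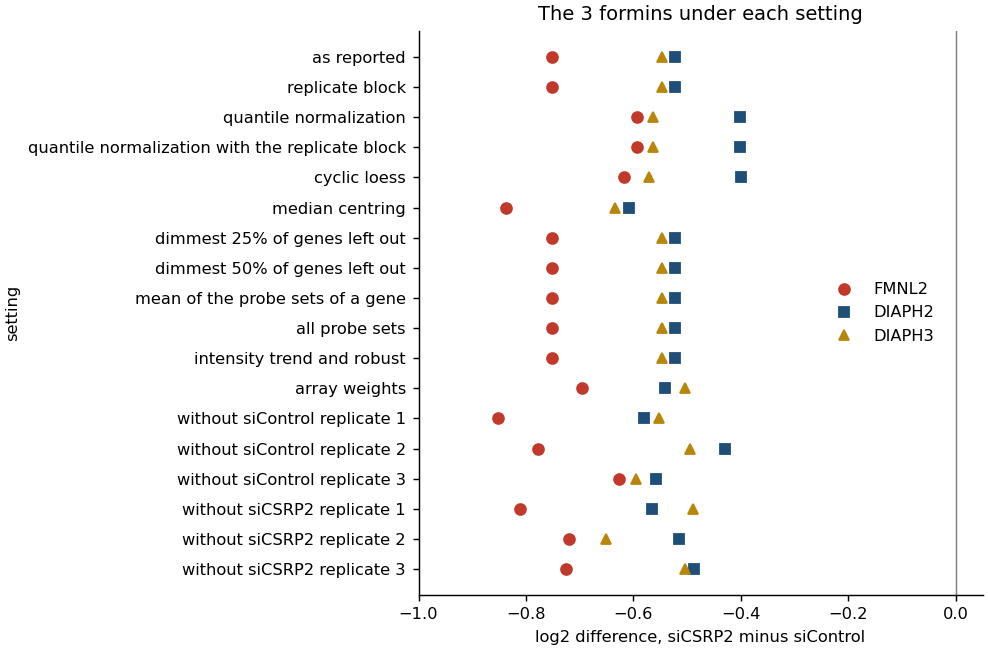
Log2 difference (siCSRP2 minus siControl) of the 3 formins as reported and under each of 17 alternatives, with a point per gene and setting. All points lie left of 0, between -0.85 and -0.40, and the FMNL2 and DIAPH2 points move towards 0 after quantile normalization or cyclic loess.

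Within the groups the 3 formins did not rank the arrays in the same order. Relative to the siControl mean, FMNL2 lay at -0.63, -0.82 and -0.80 on siCSRP2 1, 2 and 3. DIAPH2 lay at -0.43, -0.54 and -0.59 on the same arrays. DIAPH3 lay at -0.67, -0.34 and -0.64. Thus siCSRP2 2 had the lowest FMNL2 and the highest DIAPH3 of its group. On siControl 3, FMNL2 was 0.25 above the siControl mean, while DIAPH2 and DIAPH3 lay at -0.07 and -0.10. Across the 6 arrays Pearson's r was 0.893 between DIAPH2 and DIAPH3, 0.881 between DIAPH2 and FMNL2 and 0.787 between DIAPH3 and FMNL2. These values largely carry the group difference that chose the genes. After the group means were taken out, r was 0.277, 0.113 and -0.484 in the same order, over 6 arrays that share their group means. So few arrays cannot show whether the genes vary together.

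Between pairs of equal replicate number, FMNL2 differed by -0.44, -0.77 and -1.05, DIAPH2 by -0.32, -0.72 and -0.52 and DIAPH3 by -0.66, -0.45 and -0.54 (pairs 1, 2 and 3). The spread over pairs was widest for FMNL2, whose control values ran from 5.74 to 6.19 while its siCSRP2 values spanned 5.12 to 5.30. The within-array gap between the FMNL2 and DIAPH2 shifts was -0.20, -0.28 and -0.21 on siCSRP2 1, 2 and 3 and lay between -0.24 and 0.32 on the controls. The value on siCSRP2 2 lay just below the control range and the other siCSRP2 values lay inside it. The FMNL2 minus DIAPH3 gap was 0.03, -0.47 and -0.17 on siCSRP2 1, 2 and 3, with controls between -0.19 and 0.35. The DIAPH2 minus DIAPH3 gap was 0.23, -0.20 and 0.04 on the same arrays, with controls between -0.10 and 0.08.

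The family holds 15 genes on the list used here, and 13 were measured, the exceptions being INF2 and GRID2IP, which were not analysed here. Of the 10 other formins none fell and none rose (limma, adjusted over all genes), where 6.54% of all genes fell and 0.80% rose. Of these formins 1, FHOD3, had an unadjusted p under 0.05. The 10 are the formins left after the members were chosen on this contrast. Their count therefore does not show that the falls are particular to the members. The 10 had a median difference of 0.05, beside 0.02 over all genes. The median of the 10 was -0.02 after quantile normalization, so it has no settled sign.

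FHOD3, a formin of the sarcomere of heart muscle, came closest to the threshold. It measured 3.33, 3.41 and 3.28 on siControl 1, 2 and 3 and 3.02, 2.97 and 2.84 on siCSRP2 1, 2 and 3, so the groups did not overlap. Its log2 difference was -0.40 (SE 0.11, adjusted p = 0.0597 by limma), and it passed in the fit with the replicate block (adjusted p = 0.0410). It also passed without siControl 3 (adjusted p = 0.0421), after cyclic loess (0.0475), after quantile normalization with the replicate block (0.0334), after median centring (0.0309) and with array weights (0.0197). FHOD3 thus passed in 6 of 18 fits. Over all genes more fell in these fits than as reported, except after cyclic loess. With the replicate block 13.1% of all genes fell, beside 6.54% as reported. The siCSRP2 mean of FHOD3, 2.94, was below the median of all gene means, 2.99. DAAM1, a formin that acts in planar cell polarity signalling, differed by -0.22 (SE 0.12, 95% interval -0.50 to 0.06, adjusted p = 0.327 by limma), and its groups overlapped.

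DIAPH1, the founding diaphanous formin of mammals, went the other way in its estimate. Its values were 4.74, 4.81 and 4.96 for siControl and 4.77, 5.17 and 5.05 for siCSRP2, and the groups overlapped. The difference was 0.16 (SE 0.13, 95% interval -0.15 to 0.46, adjusted p = 0.516 by limma). It was above 0 in each of 18 fits, though several settings leave the estimate as it is, and it passed in none. The other formin-like genes did not pass either. FMNL1, a leukocyte formin, differed by 0.16 (95% interval -0.14 to 0.47), and FMNL3, a filopodial formin, differed by 0.00 (-0.28 to 0.28).

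The remaining formins had dim signals, with means over the 6 arrays of 2.80 for DAAM2, 2.60 for FHDC1, 2.55 for FMN1, 2.54 for FMN2 and 2.46 for FHOD1. They ranked between the 15.7 and 41.0 percentiles of all gene means, and no detection calls were used. Their differences lay between -0.03 (FHDC1) and 0.18 (FMN1), and none passed.

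**Figure D3:**
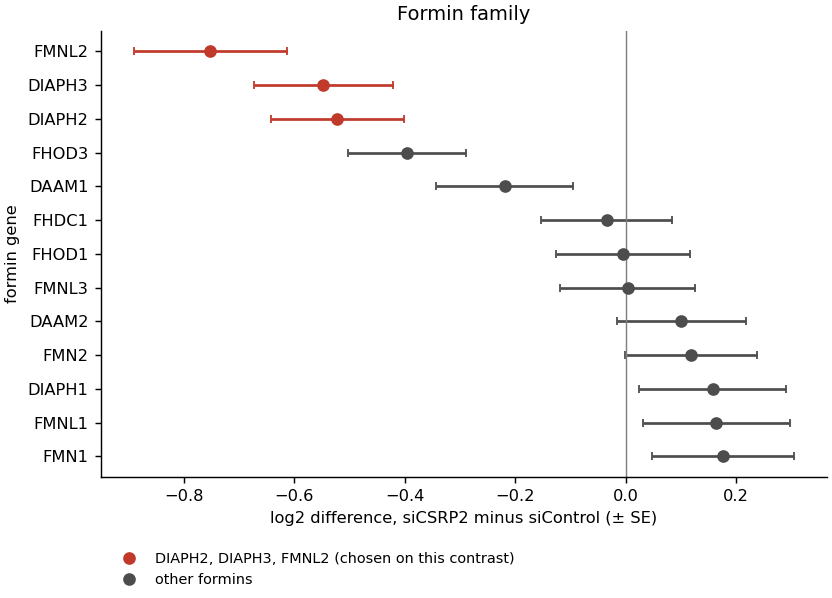
Log2 difference (siCSRP2 minus siControl) of the 13 measured formins with its SE, ordered by size; red marks the 3 genes chosen on this contrast and grey the others. FMNL2, DIAPH3 and DIAPH2 lie at -0.75, -0.55 and -0.52, FHOD3 follows at -0.40, and FMN1 is highest at 0.18.

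**Figure D4:**
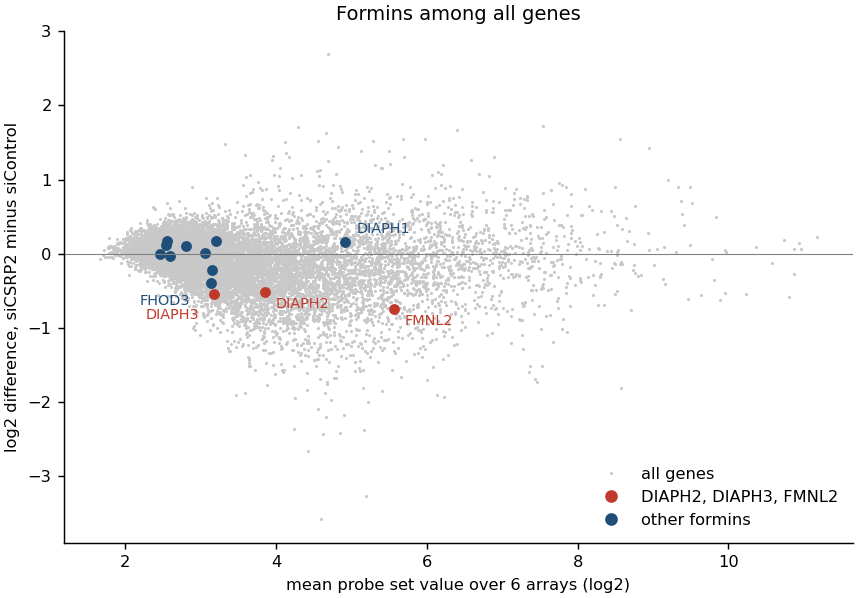
Mean probe set value over the 6 arrays (log2) against the log2 difference (siCSRP2 minus siControl), with a grey point per gene (14884), red points for the 3 chosen formins and blue points for the other 10. The 3 formins, at -0.75 to -0.52, lie within the grey cloud, DIAPH3 towards its lower edge, while the other formins lie between -0.40 and 0.18.

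Promoters of the 3 genes are shown because the genes were lower together, and each sequence is the 250 bases before the annotated start in RefSeq (GRCh38.p14), read on the strand of the gene. DIAPH2 is at chrX:96684592-96684841 on the plus strand, DIAPH3 at chr13:60163929-60164178 on the minus strand and FMNL2 at chr2:152334924-152335173 on the plus strand. Capitals mark matches, on either strand, to the motifs searched: TTTGAA (cell cycle homology region), GGAATG (TEAD), TTTNGCGC (E2F), GGGCGG (Sp1 and KLF factors), CCAAT (NF-Y) and the CArG box (SRF).
DIAPH2: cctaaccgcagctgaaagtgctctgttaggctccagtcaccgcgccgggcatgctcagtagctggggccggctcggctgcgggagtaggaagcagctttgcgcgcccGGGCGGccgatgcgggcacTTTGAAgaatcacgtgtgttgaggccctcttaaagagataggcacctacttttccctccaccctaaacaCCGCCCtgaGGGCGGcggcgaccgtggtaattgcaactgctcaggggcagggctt
DIAPH3: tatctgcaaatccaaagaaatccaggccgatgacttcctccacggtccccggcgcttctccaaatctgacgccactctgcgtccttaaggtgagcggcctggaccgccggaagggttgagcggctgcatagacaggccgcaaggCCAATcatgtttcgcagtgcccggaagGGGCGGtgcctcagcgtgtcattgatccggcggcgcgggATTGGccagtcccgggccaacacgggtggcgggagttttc
FMNL2: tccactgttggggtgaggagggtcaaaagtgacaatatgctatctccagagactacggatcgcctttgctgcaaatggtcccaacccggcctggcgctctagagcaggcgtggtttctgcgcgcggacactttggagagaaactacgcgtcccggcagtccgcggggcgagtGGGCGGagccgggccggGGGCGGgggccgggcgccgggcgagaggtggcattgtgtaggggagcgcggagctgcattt

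GGGCGG was the motif found in all 3 windows, with 3 matches in DIAPH2, 1 in DIAPH3 and 2 in FMNL2. It is common: 42.6% of 35116 promoter windows of that length hold it. The window of the first listed start of each other measured formin held it too, with 2 (FHOD1, FMN1, FMN2) to 5 (FHOD3) matches. GGGCGG is therefore not particular to the 3 genes. The DIAPH3 window also held 2 CCAAT matches, 106 and 40 bases before the start, a motif in 32.0% of all windows. The DIAPH2 window held TTTGAA, 124 bases before the start, a motif in 13.3% of windows. None of the 3 windows held GGAATG, TTTNGCGC or the CArG box, which 11.9%, 1.51% and 1.16% of windows hold. A second annotated start of DIAPH3 (chr13:60013190-60013439, minus strand) had GGAATG 31 bases before it and none of the other motifs. The motifs overlap no other motif in these windows. DIAPH1, whose estimate was above 0 but did not pass, had 4 GGGCGG matches and 1 CCAAT match. The GC content was 62.4%, 62.4% and 65.2% for DIAPH2, DIAPH3 and FMNL2, where the median of all windows was 58.0%. For the first listed start of the other measured formins it ran from 61.6% (DAAM2) to 81.6% (FHOD3).

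The list of formin binding partners had 3 of 20 measured members fall (15.0%), none rise and 17 not pass, with a median of -0.30, against 6.54% of all genes that fell. This list and those that follow had medians of gene means from 3.80 to 6.22, beside 2.99 over all genes. With the dimmest 50% of genes left out, the median difference over genes was -0.15, beside 0.02 with all genes. The shares over all genes are thus not matched to the lists for brightness. SRGAP1 and SRGAP2 are GTPase-activating proteins that bend membranes. SRGAP2 fell 2.16-fold (log2 difference -1.11, SE 0.22, adjusted p = 0.0242 by limma) and SRGAP1 fell 1.71-fold (-0.77, SE 0.15, adjusted p = 0.0229). FNBP1L, a membrane-curving protein that binds CDC42, fell 1.46-fold (-0.55, SE 0.14, adjusted p = 0.0494). The profilins, which hand actin to formins, did not pass: PFN1 differed by -0.30 (SE 0.16) and PFN2 by -0.87 (SE 0.23, adjusted p = 0.0576 by limma). With the replicate block 9 members fell, PFN2 among them, and 1 rose, where 15.8% of all genes passed, 13.1% as lower and 2.67% as higher.

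Of 6 measured genes of the Arp2/3 complex and its activators, which make branched filaments and are the other route to new actin, 1 fell (16.7%, against 6.54% of all genes) and none rose. It was cortactin, CTTN (log2 difference -0.58, SE 0.10, adjusted p = 0.0144 by limma), at 5.79, 5.81 and 5.74 on siControl arrays and 5.17, 5.20 and 5.23 on siCSRP2 arrays. The other 14 genes of that list were not analysed here, so it describes little of the complex. Of 8 actin disassembly and capping genes 2 fell (6.54% of all genes fell) and none rose. They were the muscle cofilin CFL2 (-0.62, SE 0.14) and destrin, DSTN (-0.54, SE 0.13), both of which sever filaments. The replicate block brought this count to 4, in a fit where 13.1% of all genes fell.

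Among 15 filopodia and bundling genes 3 fell (20.0%, against 6.54% of all genes) and none rose. The median was -0.26 as reported and -0.15 after quantile normalization or cyclic loess. SVIL, a membrane-linked actin binder, fell 1.67-fold (-0.74, SE 0.12, adjusted p = 0.0115 by limma). EPS8, which caps and bundles filaments, fell 1.35-fold (-0.44, SE 0.10), and ENAH, which lengthens filaments at their growing end as formins do, fell 1.40-fold (-0.48, SE 0.12). With the block 5 fell, against 13.1% of all genes.

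Of 15 measured SRF and MRTF targets and cofactors, a programme that formin activity can switch on by using up free actin, 5 fell (33.3%, against 6.54% of all genes) and 1 rose (0.80% of all genes rose). The median was -0.35 as reported, -0.17 after quantile normalization and -0.19 after cyclic loess. TGFB1I1 (-1.15), vinculin, VCL (-0.71), caldesmon, CALD1 (-0.54), the cofactor MRTFB (-1.15) and DSTN fell, and CCN2 rose (0.62). With the block 7 fell and 2 rose, in a fit where 13.1% of all genes fell and 2.67% rose.

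Genes of cytokinesis and the contractile ring, where DIAPH3 works, fell in 5 of 15 cases (33.3%, against 6.54% of all genes) and none rose, with a median of -0.56. KIF20A, a kinesin of the midzone, fell 5.16-fold (-2.37, SE 0.32, adjusted p = 0.00833 by limma). The survivin gene BIRC5 fell 2.0-fold (-1.0, SE 0.12), PLK1 fell 2.42-fold (-1.27, SE 0.26) and the septin SEPTIN11 fell 1.42-fold (-0.50, SE 0.12). CEP55, named here after its values were seen, also fell (-0.82, SE 0.21). PLK1 is also counted among the G2/M genes below, so these lists overlap. With the block 8 fell, against 13.1% of all genes.

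Proliferation markers moved in the same arrays. Of 16 measured G2/M genes 10 fell, 1 rose (CKS2, 0.50) and 5 did not pass, with a median of -0.91, where 6.54% of all genes fell and 0.80% rose. NUSAP1 (-1.09), CDK1 (-0.99), FOXM1 (-1.23) and TOP2A (-1.36) were among those that fell. With the replicate block 13 fell, in a fit where 13.1% of all genes fell. MKI67 (adjusted p = 0.0233 by limma), CCNB1 (0.00975) and CCNB2 (0.0353) were added. The sum of the 16 log2 values lay between 72.7 and 83.0 on siControl arrays and between 63.1 and 70.2 on siCSRP2 arrays. Relative to the siControl mean, the median of the list was 0.21, 0.24 and -0.43 on siControl 1, 2 and 3 and -1.03, -0.61 and -1.07 on siCSRP2 1, 2 and 3. DIAPH3 lay at -0.01, 0.11 and -0.10 on siControl 1, 2 and 3. On siCSRP2 1, 2 and 3 it lay at -0.67, -0.34 and -0.64. The part of proliferation in the DIAPH3, DIAPH2 and FMNL2 values was not tested.

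**Figure D5:**
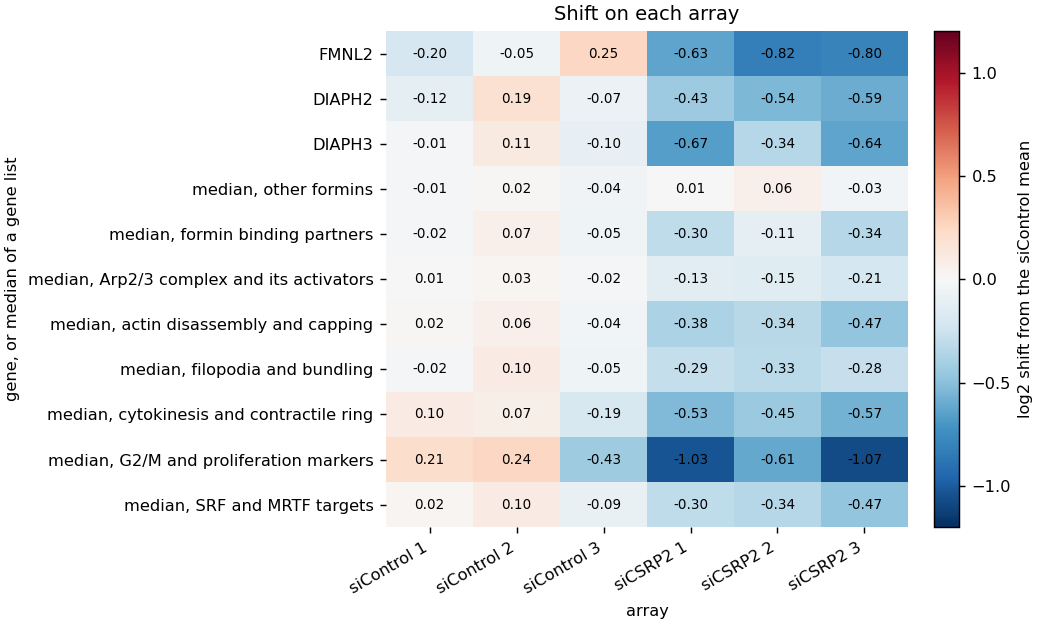
Log2 shift from the siControl mean on each array (columns) for the 3 formins and for the median of each gene list (rows), coloured blue for lower and red for higher, with the value in each cell. The formins lie between -0.82 and -0.34 on siCSRP2 arrays, the median of the other formins lies between -0.04 and 0.06 on all arrays, and the G2/M list has the lowest cell, at -1.07.

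Of the 21 members of these lists that the naming rule gave and that passed as reported (CEP55, CKS2 and CCN2 are not counted), leaving out siControl 1 lost 16, siControl 2 lost 18, siCSRP2 2 lost 16 and siCSRP2 3 lost 15. Without siCSRP2 1 8 were lost, and without siControl 3 FNBP1L was lost. Calls over all genes moved too: 974 genes fell as reported, 86 without siControl 2 and 2193 without siControl 3. The losses are therefore not particular to these list members. BIRC5, NUSAP1 and TGFB1I1 passed in each of 18 fits. All 21 kept their direction in the alternatives that were run. Their groups did not overlap, so leaving out an array could not turn the sign, and several settings leave the estimate as it is. The kept direction is therefore no sign of stability. After quantile normalization and after cyclic loess SRGAP1, FNBP1L, CFL2, DSTN, EPS8, ENAH, SEPTIN11 and CALD1 did not pass. With every probe set as a feature 14 of the 21 did not pass, and with an intensity trend and robust variances 7 did not.

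The genes with patterns most like each formin were taken from 7441 genes above the median brightness, by Pearson's r over the 6 arrays. For DIAPH2 they were ENAH (r = 0.999), the endocytic adaptor HIP1 (0.998), the microfibril gene MFAP2 (0.996), the ubiquitin ligase subunit RBCK1 (0.995) and BMERB1 (0.991). For DIAPH3 they were the phosphatidate phosphatase LPIN1 (0.994), VCPIP1 (0.994), EFCAB14 (0.994), MTHFD2L (0.993) and the matrix gene EFEMP1 (0.992). For FMNL2 they were the TGF-beta binding protein LTBP1 (0.993), the transcription factor SOX4 (0.993), SRGAP1 (0.992), DNMBP (0.992), which is an exchange factor for CDC42, and MPRIP (0.989). With the group means taken out, r for these 15 genes lay between 0.940 and 0.992. The values of r over the 6 arrays share the group difference. Both kinds of r come from the same arrays on which these genes were picked as the highest of 7441. High values therefore follow from the choice, also with the group means taken out, and they are a description only. ENAH, picked as the gene most like DIAPH2, measured 4.87, 5.14 and 4.87 on siControl arrays and 4.57, 4.44 and 4.41 on siCSRP2 arrays.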

How the data were processed

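The authors deposited 1 log2 value per probe set and array; base 2 was inferred from the range of the values. Partek is named, without version or role, per the submitters' processing notes. How background, probe summaries and normalization were handled, and the genome build, is not given in the sources used here. Of 53617 probe sets 16098 carried 1 gene symbol in the platform table, and all of these matched RefSeq (GRCh38.p14) by gene identifier, which gave 14884 genes, each by its brightest probe set. FMNL2, DIAPH2 and DIAPH3 had 1 probe set each. The alternatives were other normalizations, dim-gene filters, probe set rules, variance settings, the replicate block and leaving out each array. No filter or further normalization was applied.

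Groups and replicate numbers came from the sample titles. The comparison used lmFit and eBayes of limma 3.58.1 (R 4.3.3), two-sided, with group as the only term; p-values were adjusted by Benjamini-Hochberg across every gene and called under 0.05. The fit was tested on simulated data. Precision is limited by the 3 arrays per group. Deviations from the group means correlated at 0.305, 0.187 and 0.321 between arrays of equal number, each over 0.1. Between arrays of unequal number the correlations lay between -0.256 and 0.052. On that basis equal numbers were treated as pairs in the fits with the replicate block, which are alternatives. The reported fit did not use the pairs. The pairing is a reading of the values that no label states.

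The members and the 9 gene lists were chosen with earlier results of these data known. Named genes are the members, CSRP2, every other measured formin, the list members past the threshold (at most 4 per list, by adjusted p) and the 5 genes most like each member. CEP55, PFN1, PFN2, CKS2, CCN2, MKI67, CCNB1, CCNB2 and the cell type markers VIM, AXL, TWIST1, KRT18, KRT19 and CLDN3 were named outside this rule, after their values were seen. A list of formin activators is not reported here. A planned comparison with olfactory receptor genes was not made, since 1 such gene was measured, and protein sequences were not used here.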

Additional observations from a re-analysis of the deposited data

How the results depend on the processing

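The differences of FMNL2, DIAPH2 and DIAPH3 ran from -0.85 to -0.59, -0.61 to -0.40 and -0.65 to -0.49 over the fits; their sign, fixed by the choice of genes, shows no stability. With the replicate block, 4 formins fell (FHOD3 was added) and none rose, and over all genes 1950 fell and 398 rose; with quantile normalization and the replicate block together 1485 fell and 522 rose. Over all genes 210 rose after quantile normalization and 197 after cyclic loess, 1471 fell after median centring, 2327 fell and 597 rose with array weights, and 455 fell and 51 rose with every probe set as a feature, where more features were tested and 0 formins fell. With 1 array left out, the formins that fell numbered 0 to 4, and the genes that fell numbered 86 to 2193 and those that rose 5 to 427 (the lowest gene counts without siControl 2, the highest without siControl 3). The cause of the array effects was not tested. No detection calls were used, so dim formins have no marked limit. In the fit with the block none of the 21 named list members that passed as reported lost its call.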
